A study of Mus musculus with 20 samples.

Results

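The heat shock and chaperone genes described here are 10 genes of the 33119 in the count table, chosen by name, with earlier results of these data known. They are the HSP70 genes Hspa1a, Hspa1b and Hspa8, the endoplasmic reticulum HSP70 gene Hspa5, the HSP90 genes Hsp90aa1 and Hsp90ab1, the HSP110 gene Hsph1, the small heat shock protein gene Hspb1, the J-domain gene Dnajb1 and the co-chaperone gene Bag3. All 10 were among the 21724 genes that passed the expression filter and were tested. RNA came from the hippocampus of 20 C57BL/6 mice aged 16 months in which targeted replacement put human APOE3 (hAPOE3) or human APOE4 (hAPOE4) in place of the mouse gene on both chromosomes. Each genotype was represented by 5 males and 5 females. The mice were bought from a commercial supplier and perfused with saline before dissection, and every group carried a human allele, so that no mouse with its own Apoe gene served as a control. Mice are named by a number from 1 to 5 within their group, given in accession order.

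Heat shock proteins are chaperones: they hold unfolded proteins, fold them with the energy of ATP and pass damaged ones on for degradation. HSP70 proteins bind short greasy stretches of a client, J-domain proteins such as Dnajb1 bring the client and start ATP hydrolysis, and nucleotide exchange factors such as Hsph1 and Bag3 open HSP70 again. HSP90 takes over clients at a later stage of folding, and small heat shock proteins such as Hspb1 hold aggregating proteins without ATP. Cytosolic stress raises the inducible members through the heat shock factor Hsf1, which binds repeated GAA units in promoters. Misfolding inside the endoplasmic reticulum raises a separate set led by Hspa5 (BiP) through the unfolded protein response. Neurons keep high levels of the constitutive members Hspa8 and Hsp90ab1.

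Between 35778879 and 52520279 counts per mouse were assigned to genes, and Hspb1 had the lowest count of a member in a single mouse and Hspa8 the highest, 98263. The hippocampal neuron markers were present in every mouse, with summed levels of 724 to 1255 CPM (counts scaled to library size, summed over the list). The human alleles could not be checked on mouse transcripts. Some libraries stood apart. In hAPOE4 males 2 to 5 the female transcript Xist reached 19.3 to 28.4 CPM, against 3.95 to 7.50 CPM in the other 6 males and at least 654 CPM in females. Whether these 4 libraries held RNA from another source was not tested, and it bears on every hAPOE4 male value. In hAPOE3 male 5 and hAPOE4 males 3 and 5 the summed striatum and thalamus markers were 972, 489 and 509 CPM, against 137 to 253 CPM in the other 17 mice. The summed choroid plexus markers ran from 72.7 to 6445 CPM over the 20 mice. In 5 hAPOE3 mice (males 3 to 5 and females 4 and 5) nuclear oxidative phosphorylation genes summed to 2519 to 2837 CPM, against 1609 to 2143 CPM in the other 15 mice.

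Hspa1a (chr17:34969190-34972156, minus strand) and Hspa1b (chr17:34956436-34959238, minus strand) are neighbouring single-exon genes for the stress-inducible HSP70, given here in GRCm38 as are all positions. Of the 31-base words in the Hspa1a transcript, 63.8% also occurred in that of Hspa1b, so that the counting had to divide many reads between the pair and each gene's own value is uncertain. The letters before their starts are shown because Hspa1b and Hspa5 were the members called between the genotypes below, and Hspa1a is the near copy of Hspa1b. They are RefSeq promoter windows of GRCm38.p6, 5′ to 3′ on the gene's strand, and capitals mark 2 facing heat shock units, searched as GAANNTTC, which reads the same on both strands.
Hspa1a, chr17:34972157-34972406: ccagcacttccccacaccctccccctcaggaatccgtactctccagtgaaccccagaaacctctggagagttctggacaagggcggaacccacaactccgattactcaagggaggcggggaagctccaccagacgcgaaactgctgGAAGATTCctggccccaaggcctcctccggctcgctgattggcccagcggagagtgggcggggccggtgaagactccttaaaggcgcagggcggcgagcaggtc
Hspa1b, chr17:34959239-34959488: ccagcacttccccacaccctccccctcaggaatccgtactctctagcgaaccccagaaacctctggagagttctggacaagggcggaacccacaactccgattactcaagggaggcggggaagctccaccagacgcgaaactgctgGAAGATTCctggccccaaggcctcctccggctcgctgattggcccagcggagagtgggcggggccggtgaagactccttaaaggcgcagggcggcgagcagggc
These 250 bases were identical at 247 positions. Both held the pair of units with its first base 104 bases before the start, a match found in 6.69% of 32851 windows of this length. The longer run of 3 units, GAANNTTCNNGAA, was found on either strand in 0.466% of windows and in none of the members' windows. Windows were matched for 7 of the 10 members. For Hspa8, Hsp90aa1 and Hsp90ab1 no window was matched. In the windows of Hspb1 and Hspa5 the following 30 bases held matches, for Hspb1 to the facing units and for Hspa5 to the endoplasmic reticulum stress response element, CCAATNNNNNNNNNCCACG.
Hspb1, chr5:135887801-135887830, plus strand: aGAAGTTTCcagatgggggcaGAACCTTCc
Hspa5, chr2:34772020-34772049, plus strand: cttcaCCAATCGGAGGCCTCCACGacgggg
The stress response element was found on either strand in 37 of the 32851 windows (0.113%), and Hspa5 was the member that held it. Hspb1 held the facing units at 117 and at 97 bases before its start. The 2 units in the opposite order, TTCNNGAA, occurred in 7.17% of windows. Hsph1 held them at 1 site, which lay in both of its overlapping windows, 33 bases before the start of window 1 and 54 before that of window 2. Both windows reach into the annotated span of Hsph1. The Hspa5 bases lie before the RefSeq start but after the first annotated base of the gene given below, so that they fall inside its annotated span. A match describes letters and does not show that a factor was bound.

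Levels were also set per kilobase of exon, and the members differed widely. Per kilobase, Hsp90ab1, the constitutive HSP90 gene, was highest at 480 ± 49.5 CPM per kilobase (SD, n = 20). It was followed by Hspa8, the constitutive HSP70 gene, at 409 ± 38.8 and by Hsp90aa1, the inducible HSP90 gene, at 322 ± 34.6 CPM per kilobase. Neighbours in this order had overlapping ranges over the 20 mice. The length was that of all annotated exons merged over transcripts, 4.301 kilobases for Hspa8 and 2.999 for Hsp90ab1, and the order depends on it. Without division by length Hspa8 was higher than Hsp90ab1, at 1759 against 1441 CPM (means, n = 20). Hspa5 stood at 70.9 ± 16.4 CPM per kilobase, with no mouse in the range of Hsp90aa1. Hsph1 had 41.4 ± 4.97 CPM per kilobase and overlapped Hspa5 in range, while Dnajb1 had 15.0 ± 2.54 and did not reach Hsph1 in any mouse. The lowest were Hspa1b with 8.83 ± 4.16, Hspb1 with 8.39 ± 3.92, Hspa1a with 6.84 ± 2.75 and Bag3 with 4.5 ± 1.06 CPM per kilobase, and their ranges overlapped each other and, for Hspa1b, Hspb1 and Hspa1a, that of Dnajb1. The HSP70 gene Hspa1l shared 12.1% of the words of Hspa1a and 11.1% of those of Hspa1b, and its 69 to 138 counts reached up to 23.5% of the counts of Hspa1a and 17.9% of those of Hspa1b. Pseudogene copies took smaller shares. The most counted pseudogene copy of Hsp90aa1, Gm12346, had at most 0.493% of the counts of Hsp90aa1, and that of Hspb1, Hsp25-ps1, at most 1.95% of the counts of Hspb1.

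**Figure D1:**
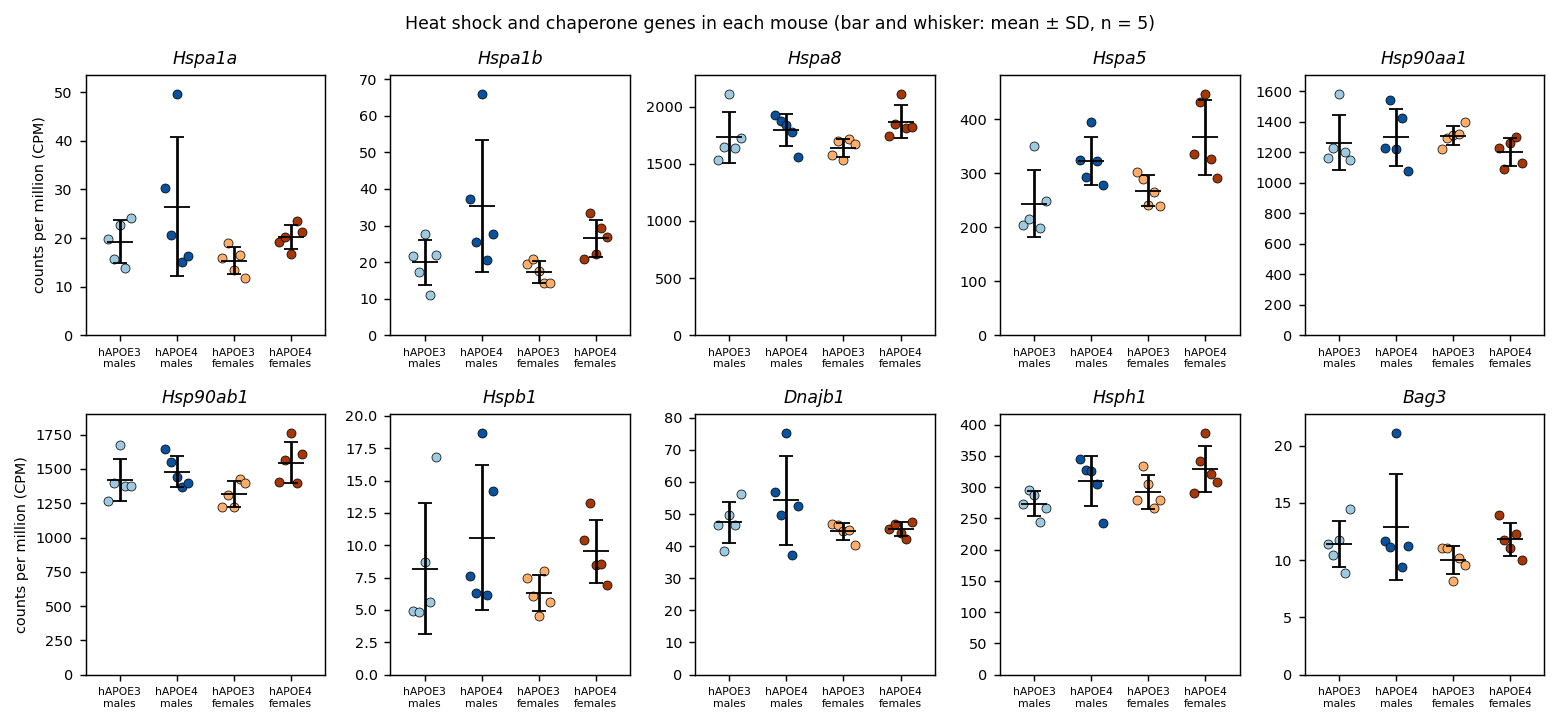
Level of each of the 10 genes in CPM (y axis, from 0, linear) in each mouse of the 4 groups, with the mean and SD of 5 mice as a bar and whiskers. hAPOE4 male 3 is the highest point of Hspa1a (49.6 CPM) and Hspa1b (66.0 CPM), and the hAPOE4 groups of Hspa5 lie above most hAPOE3 mice.

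Whether APOE genotype altered the chaperone genes was asked over both sexes together, in each sex, and as an interaction. Over both sexes, Hspa1b and Hspa5 were higher in hAPOE4 mice and passed the threshold, an adjusted p of 0.05 by edgeR's quasi-likelihood test. That is 2 of 10 members, against 2.45% of all genes tested (0.704% higher and 1.74% lower in hAPOE4 mice). DESeq2 called the same 2 members, against 4.83% of its tested genes, and limma called Hspa5, against 2.14%. At an unadjusted p under 0.05 there were 5 members by edgeR (Hspa1a, Hspa1b, Hspa5, Hsp90ab1 and Hsph1), against 17.9% of all genes by edgeR. There were 7 by DESeq2, with Hspa8 and Hspb1 added, and 5 by limma, with Hspb1 in place of Hsph1. Here and below, the share of all genes at an unadjusted p was counted for edgeR alone. The DESeq2 and limma counts at that level therefore have no share of their own to be read against. Of the 10 log2 fold changes 9 were above 0, against 50.3% of all genes, and their median was 0.19 against 0.0016. In bulk tissue, less RNA per cell and fewer cells of a type cannot be told apart.

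Hspa1b was 21.7, 17.2, 27.7, 11.1 and 21.8 CPM in hAPOE3 males 1 to 5 and 37.2, 25.4, 66.0, 20.7 and 27.6 CPM in hAPOE4 males 1 to 5. In females it was 19.5, 20.7, 17.7, 14.4 and 14.1 CPM with hAPOE3 and 20.7, 33.3, 22.2, 29.3 and 26.8 CPM with hAPOE4. The genotypes overlapped among males, where hAPOE4 male 3 was more than any other mouse, and in females the lowest hAPOE4 mouse lay beside the highest hAPOE3 mouse. The log2 fold change over both sexes was 0.72 (SE 0.19, edgeR adjusted p = 0.0431), or 1.65-fold. It was 0.83 in males (SE 0.26, edgeR adjusted p = 0.259) and 0.61 in females (SE 0.26, edgeR adjusted p = 0.420). Without hAPOE4 male 3 the value over both sexes was 0.55 (edgeR adjusted p = 0.0676).

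Hspa1a was 19.9, 15.8, 22.6, 13.8 and 24.1 CPM in hAPOE3 males 1 to 5 and 30.4, 20.7, 49.6, 15.2 and 16.3 CPM in hAPOE4 males. In hAPOE3 females it was 16.0, 18.9, 13.5, 16.5 and 11.8 CPM, and in hAPOE4 females 19.1, 20.1, 16.8, 23.6 and 21.2 CPM. The genotypes overlapped in both sexes. Its log2 fold change over both sexes was 0.43 (SE 0.18, edgeR adjusted p = 0.208) and did not pass, and it was 0.25 without hAPOE4 male 3 (edgeR adjusted p = 0.382). With the counts of Hspa1a and Hspa1b summed, which removes the division of reads within the pair, the change was 0.59 (SE 0.18, edgeR adjusted p = 0.0778) and missed the threshold.

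Hspa5, the HSP70 of the endoplasmic reticulum (chr2:34771970-34777547, plus strand), was 205, 216, 349.8, 199 and 248 CPM in hAPOE3 males 1 to 5 and 324, 293, 395, 322 and 279 CPM in hAPOE4 males. In hAPOE3 females it was 303, 289, 241, 265 and 238 CPM and in hAPOE4 females 336, 432, 447, 326 and 290.3 CPM. hAPOE3 male 3 was the mouse that reached into the hAPOE4 males, and in females the lowest hAPOE4 mouse lay between the top hAPOE3 mice. The log2 fold change over both sexes was 0.43 (SE 0.11, edgeR adjusted p = 0.0380), or 1.35-fold. In males it was 0.41 (SE 0.15, edgeR adjusted p = 0.401) and in females 0.45 (SE 0.15, edgeR adjusted p = 0.229). Without hAPOE3 male 3, a member call within 1 sex appeared, Hspa5 in males with 0.57 (edgeR adjusted p = 0.0480).

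Both calls lay close to the threshold. When 1 mouse was left out, Hspa1b stayed past it in 6 of 20 fits and Hspa5 in 8 of 20, with all 20 log2 fold changes above 0 for each (Hspa1b 0.55 to 0.80, Hspa5 0.39 to 0.51). Without hAPOE4 males 2 to 5, which had more Xist than the other males, the changes were 0.77 for Hspa1b and 0.44 for Hspa5. That fit left 1 hAPOE4 male, assumed to vary like the other mice. Without the 3 males with high striatum and thalamus markers the changes were 0.56 (edgeR adjusted p = 0.10) and 0.41 (edgeR adjusted p = 0.0996). With the oxidative phosphorylation score as a covariate they were 0.59 (edgeR adjusted p = 0.150) and 0.43 (edgeR adjusted p = 0.0795), and with the immediate early gene score 0.65 and 0.33 (edgeR adjusted p = 0.127 for each). Leaving out the 3 males or adding either score ended the calls, and each of these fits left the direction.

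**Figure D2:**
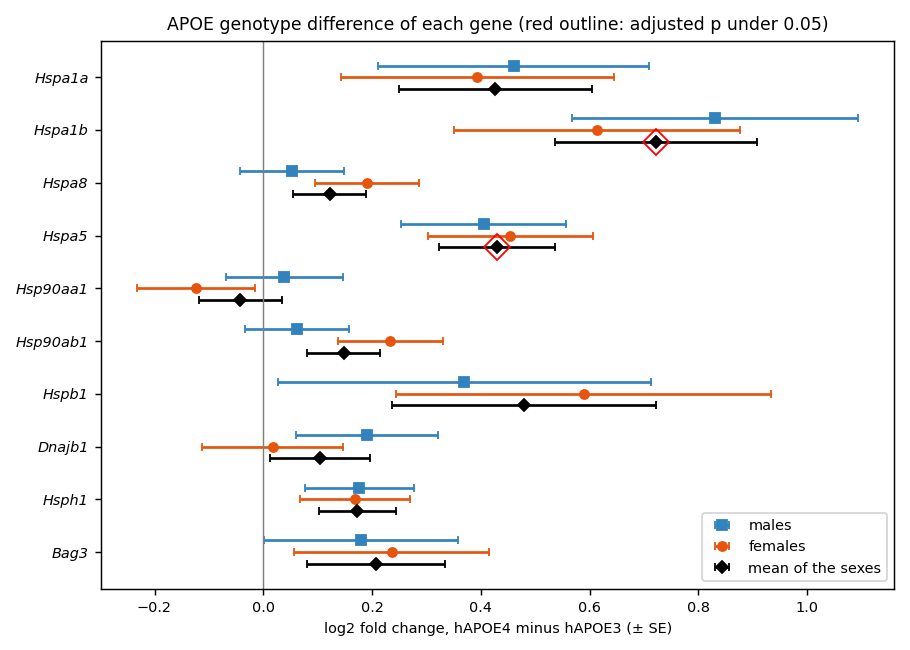
Log2 fold change from hAPOE3 to hAPOE4 (x axis) of each of the 10 genes, with whiskers of 1 SE, in males, in females and as the mean of the sexes. Red outlines mark Hspa1b (0.72) and Hspa5 (0.43), past an adjusted p of 0.05 in the mean, and Hsp90aa1 is the gene whose mean lies below 0 (-0.04).

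For Hspa8 and the HSP90 genes the values over both sexes lay between -0.04 and 0.15 on the log2 scale, and 0 of 3 passed by edgeR, DESeq2 or limma. Hspa8 (chr9:40800984-40810087) was 1529 to 2112 CPM with hAPOE3 (median 1649) and 1564 to 1924 CPM with hAPOE4 (median 1836) in males, and 1535 to 1713 CPM with hAPOE3 (median 1671) and 1745 to 2111 CPM with hAPOE4 (median 1826) in females. In females its groups did not overlap, yet the change of 0.19 had an edgeR adjusted p of 0.519. Hsp90ab1 (chr17:45567775-45573271) was 1223, 1311, 1219.8, 1429 and 1394 CPM in hAPOE3 females and 1405, 1562, 1762, 1396 and 1609 CPM in hAPOE4 females, where the groups overlapped at their edges. Its log2 fold change was 0.23 in females (SE 0.10, edgeR adjusted p = 0.390), 0.06 in males (SE 0.10, edgeR adjusted p = 0.853) and 0.15 over both sexes (SE 0.07, edgeR adjusted p = 0.258). Hsp90aa1 (chr12:110690605-110702728) had medians of 1199.5 and 1228 CPM in hAPOE3 and hAPOE4 males and of 1310.5 and 1225 CPM in hAPOE3 and hAPOE4 females. Its change over both sexes was -0.04 (SE 0.08, edgeR adjusted p = 0.809), and its sign turned with limma and without hAPOE3 male 3.

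Among the partners of HSP70, Hsph1 (chr5:149614287-149636376) was 272, 296, 286, 245 and 267 CPM in hAPOE3 males and 345, 327, 326, 305 and 242 CPM in hAPOE4 males. hAPOE4 male 5 was lowest of all 20 mice, and the other 4 lay above the hAPOE3 males. Over both sexes the log2 fold change of Hsph1 was 0.17 (SE 0.07, edgeR adjusted p = 0.205), and 0.04 with limma (adjusted p = 0.778). Dnajb1 (chr8:83608193-83612653) ran from 38.4 to 56.1 CPM in hAPOE3 males and from 37.1 to 75.2 CPM in hAPOE4 males, with 40.3 to 46.9 CPM in hAPOE3 females and 42.2 to 47.6 CPM in hAPOE4 females. Its change was 0.10 (SE 0.09, edgeR adjusted p = 0.585), the highest value again being hAPOE4 male 3. Bag3 (chr7:128523616-128546981) had medians of 11.4 and 11.2 CPM in males and of 10.2 and 11.7 CPM in females, hAPOE3 first, and its change was 0.21 (SE 0.13, edgeR adjusted p = 0.402). Without hAPOE4 male 3 the changes were 0.03 for Dnajb1 (edgeR adjusted p = 0.878) and 0.08 for Bag3 (edgeR adjusted p = 0.698), and without hAPOE4 male 4 that of Dnajb1 was 0.16 (edgeR adjusted p = 0.297). The groups of both genes overlapped.

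Hspb1 (chr5:135887919-135889563) spanned a wide range within the male groups. It was 4.9, 4.9, 8.7, 5.6 and 16.8 CPM in hAPOE3 males 1 to 5 and 7.6, 6.3, 18.7, 6.1 and 14.2 CPM in hAPOE4 males. In hAPOE3 females it was 7.4, 6.1, 4.5, 8.0 and 5.6 CPM, and in hAPOE4 females 10.4, 13.3, 8.5, 8.5 and 6.9 CPM. The 3 highest values were those of hAPOE3 male 5 and hAPOE4 males 3 and 5, the mice with the high striatum and thalamus markers. Their summed oligodendrocyte markers were 13394, 9683 and 6523 CPM, against 4206 to 6391 CPM in the other 17 mice, and the part of this tissue difference in Hspb1 was not tested. The log2 fold change of Hspb1 over both sexes was 0.48 (SE 0.24, edgeR adjusted p = 0.308), and 0.37 without these 3 mice (SE 0.16, edgeR adjusted p = 0.245).

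Within each sex 0 of 10 members passed with edgeR, DESeq2 or limma. edgeR called 0.621% of all genes between the male genotypes and 0.667% between the female genotypes. At an unadjusted p under 0.05 there were 2 members in males by each tool (Hspa1b and Hspa5), against 9.06% of all genes by edgeR. In females there were 3 by edgeR and limma (Hspa1b, Hspa5 and Hsp90ab1) and 4 by DESeq2, with Hspa8 added, against 10.1% by edgeR. The change was above 0 for 10 of 10 members in males and 9 of 10 in females, with medians of 0.18 and 0.23. The interaction of sex and APOE was called for 0 of 10 members by edgeR, DESeq2 and limma, against 0.184% of all genes by edgeR, with 0 members at an unadjusted p under 0.05 by each tool, against 2.54%. The interaction values ran from -0.22 (Hspa1b) to 0.22 (Hspb1), so that a difference between the sexes in the genotype change was not shown for any member.

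**Figure D3:**
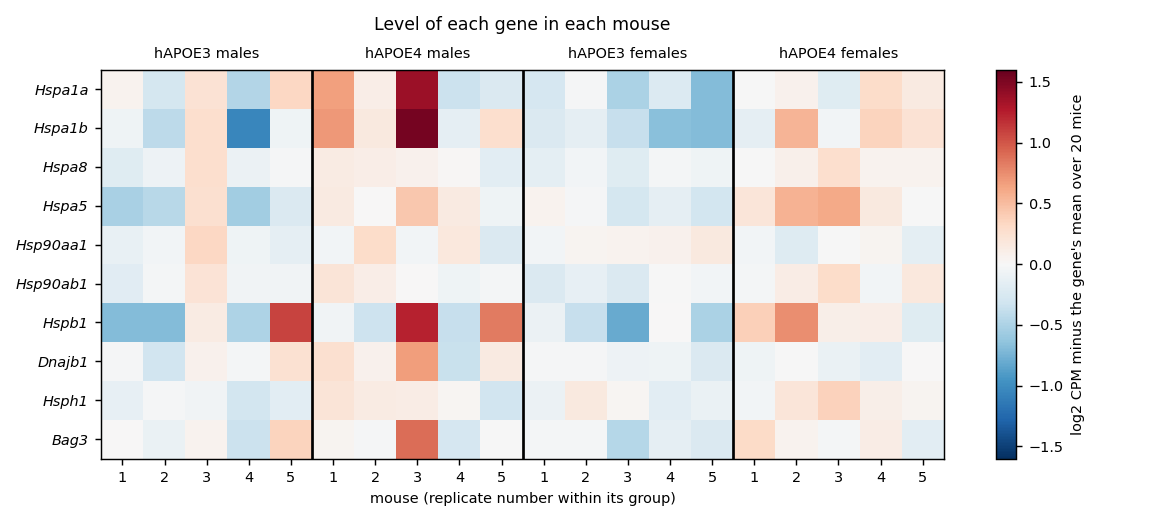
Log2 CPM minus the mean of the gene over the 20 mice (colour, red above and blue below) for each gene (rows) and mouse (columns, by group). hAPOE4 male 3 is red for Hspa1a, Hspa1b, Hspb1, Dnajb1 and Bag3, and hAPOE3 male 3 is above its group for Hspa5 (349.8 CPM) and Hsp90aa1 (1582 CPM).

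Females and males were compared within each genotype and over both. In hAPOE3 mice 0 of 10 members passed by edgeR, DESeq2 or limma, against 0.0414% of all genes by edgeR, and 0 had an unadjusted p under 0.05 by any of the tools, against 5.22%. In hAPOE4 mice 0 passed by the 3 tools, against 0.437%, with 0 at an unadjusted p under 0.05, against 5.80%. Over both genotypes 0 passed by the 3 tools, against 0.129%. An unadjusted p under 0.05 was reached by 0 members with edgeR and limma, against 10.04% of genes by edgeR, and by Hspa1a with DESeq2. Hspa1a was lower in females by 0.36 on the log2 scale (log2 fold change -0.36, SE 0.18, edgeR adjusted p = 0.513) and Hspa5 higher by 0.16 (SE 0.11, edgeR adjusted p = 0.661).

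Members were correlated across the 20 mice after each group's mean was removed, so that genotype and sex differences did not enter. Tissue differences between mice of the same group remained. Of 45 pairs 38 had a Pearson r above 0, and 11 had an adjusted p under 0.05 by permutation of mice within groups (7 by Spearman's rho, all of them among the 11). Pairs of other genes were not counted, so whether these numbers are particular to chaperone genes was not tested. The constitutive genes Hspa8 and Hsp90ab1 went together, with r = 0.85 (permutation p = 2e-05, adjusted p = 0.0009 over 45 pairs) and rho = 0.79 (permutation p = 0.0001, adjusted p = 0.0045), and r = 0.74 without the 2 mice farthest from the median of Hspa8. Hspa1a and Hspa1b, which also share reads, had r = 0.87 (permutation p = 0.00012, adjusted p = 0.0027) and rho = 0.78 (permutation p = 0.00109, adjusted p = 0.0117), and r = 0.76 without the 2 farthest mice. The inducible genes Hspa1a and Dnajb1 had r = 0.82 (permutation p = 0.0014, adjusted p = 0.0126) and rho = 0.80 (permutation p = 0.0013, adjusted p = 0.0117), and r = 0.60 without the 2 farthest mice.

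Hspa1a and Bag3 had r = 0.83 (permutation p = 0.00043, adjusted p = 0.00645) and rho = 0.72 (permutation p = 0.00097, adjusted p = 0.0117), and r = 0.61 without the 2 farthest mice. Hspb1 and Bag3 had r = 0.75 (permutation p = 0.00061, adjusted p = 0.00686) and rho = 0.72 (permutation p = 0.00101, adjusted p = 0.0117), and r = 0.56 without them. Hspa8 and Hspa5 had r = 0.72 (permutation p = 0.00435, adjusted p = 0.0326) and rho = 0.64 (permutation p = 0.0052, adjusted p = 0.0334), and r = 0.45 without the 2 farthest mice. Hspa1b and Dnajb1 had r = 0.73 (permutation p = 0.0111, adjusted p = 0.0454) and rho = 0.72 (permutation p = 0.0031, adjusted p = 0.0232), and r = 0.68 without the 2 farthest mice. The number of pairs past the threshold, of all 45, depended on single mice: it fell from 11 to 2 without hAPOE4 male 3. It was 5 without hAPOE3 male 3 and also without hAPOE3 male 5, 6 without hAPOE4 male 2 and also without hAPOE4 male 4, and 7 without hAPOE3 female 1, hAPOE3 female 2, hAPOE4 male 1 or hAPOE4 male 5.

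**Figure D4:**
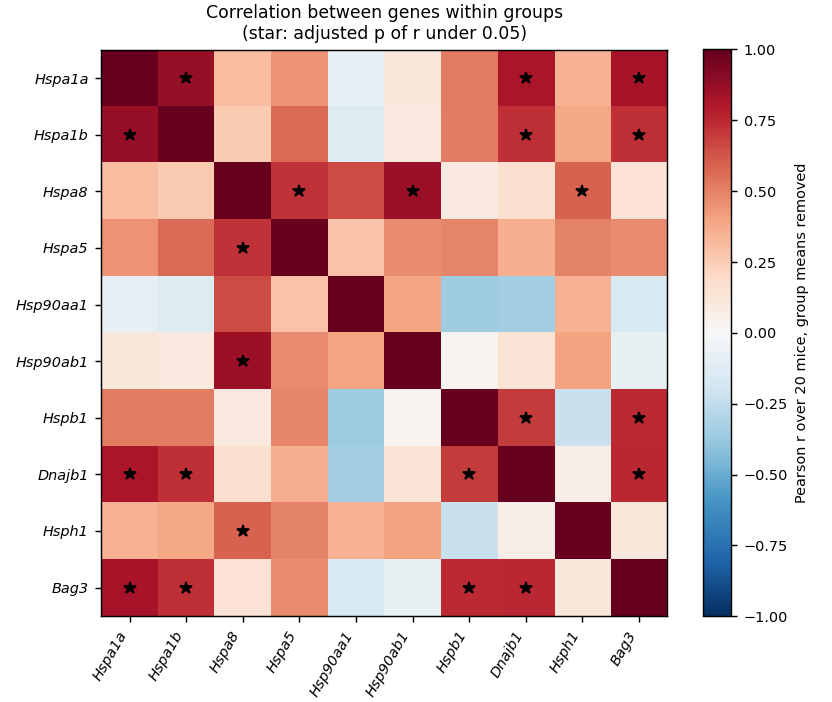
Pearson r of each pair of the 10 genes over 20 mice with group means removed (colour scale from -1 to 1), with stars on the 11 pairs with an adjusted p under 0.05. The stars lie mostly among Hspa1a, Hspa1b, Hspb1, Dnajb1 and Bag3, and Hspa8 with Hsp90ab1 reaches r = 0.85.

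With group means kept, each member's 3 most similar genes over the 20 mice were found among 12799 genes. For Hspa5 these were the endoplasmic reticulum chaperones Pdia4 (r = 0.94) and Pdia3 (r = 0.91), which form disulfide bonds, and Manf (r = 0.89), a small secreted protein of that compartment. Hspa1b was most like Ficd (r = 0.94), which codes for an enzyme that modifies the Hspa5 protein, and Hspa8 was most like Hsp90ab1 (r = 0.90). Hspb1 was most like Isyna1 (r = 0.90), the enzyme that makes inositol phosphate from glucose 6-phosphate, and Bag3 was most like the potassium channel gene Kcnh2 (r = 0.88). These are descriptions of 20 mice that share group and tissue differences, and carry no test.

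Other chaperone genes were listed in 9 groups of 88 genes. Over both sexes 2 were called higher in hAPOE4 mice and 1 lower by edgeR, 85 were not called, against 0.704% of all genes called higher and 1.74% called lower. Of the 88 changes 60 were above 0, against 50.3% of all genes, with a median of 0.07. Both genes called higher code for endoplasmic reticulum chaperones, Hyou1 (an HSP110 relative that works with Hspa5) and Pdia4. In that list of 24 genes 20 changes were above 0, 11 had an unadjusted p under 0.05, against 17.9% of all genes, and the median was 0.17 against 0.0016 for all genes. Manf, in the same list, had a change of 0.31 (SE 0.09, edgeR adjusted p = 0.0609) and Pdia6 one of 0.28 (SE 0.08, edgeR adjusted p = 0.0620). Calr, also in the list, had one of 0.13 (SE 0.09, edgeR adjusted p = 0.479). The changes below 0 were those of Ddit3 (-0.12), Dnajb9 (-0.10), Sil1 (-0.08) and Edem1 (-0.06), which were not called. Hsp90b1, the HSP90 of that compartment and listed with the other HSP90 genes, had a change of 0.23 (SE 0.08, edgeR adjusted p = 0.115).

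Hyou1 (chr9:44379490-44392369) was 94.2, 92.7, 98.3, 71.7 and 94.1 CPM in hAPOE3 males and 125, 105, 139.6, 109.6 and 119 CPM in hAPOE4 males. In hAPOE3 females it was 107, 108, 96.8, 86.7 and 72.7 CPM and in hAPOE4 females 116, 130.3, 120.9, 114 and 119 CPM. In neither sex did the genotypes overlap. The log2 fold change was 0.38 over both sexes (SE 0.08, edgeR adjusted p = 0.0102), 0.41 in males (SE 0.11, edgeR adjusted p = 0.131) and 0.35 in females (SE 0.11, edgeR adjusted p = 0.180). Hyou1 stayed past the threshold over both sexes in each of the 20 fits without 1 mouse and in the other 10 planned fits, and missed it without hAPOE4 males 2 to 5 (0.42, edgeR adjusted p = 0.148).

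Pdia4 (chr6:47796141-47813430) was 37.8, 38.2, 50.3, 42.1 and 48.0 CPM in hAPOE3 males and 56.0, 53.6, 65.6, 53.5 and 47.8 CPM in hAPOE4 males. In hAPOE3 females it was 58.2, 52.3, 43.7, 49.9 and 46.4 CPM and in hAPOE4 females 59.7, 75.5, 82.7, 61.3 and 50.9 CPM. hAPOE4 male 5 and hAPOE4 female 5 lay among the hAPOE3 mice of their sex. Pdia4 rose by a log2 fold change of 0.38 over both sexes (SE 0.09, edgeR adjusted p = 0.0270). Dnajc2 (chr5:21757267-21785251), a J-domain protein of the ribosome, was the gene called lower, with -0.25 (SE 0.06, edgeR adjusted p = 0.0414). It was 30.98 to 41.7 CPM in males and 31.9 to 40.9 CPM in females with hAPOE3, and 27.2 to 33.9 CPM in males and 27.0 to 31.2 CPM in females with hAPOE4, without overlap in females. The call of Pdia4 held in 15 and that of Dnajc2 in 7 of 20 fits without 1 mouse. Of the other 10 planned fits the call of Pdia4 held in 8 and that of Dnajc2 in 6, the latter being lost with limma (adjusted p = 0.113).

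The 8 lists other than that of the endoplasmic reticulum held 1 call, Dnajc2. They were grouped by protein family and held genes of several compartments. Medians were 0.11 for the other HSP70 and HSP110 genes (8 of 9 above 0), 0.08 for HSP90 and HSP70 cochaperones (8 of 12), 0.05 for chaperonins (7 of 10), -0.02 for other J-domain proteins (7 of 15), 0.16 for the other HSP90 genes (2 of 2), 0.02 for nucleotide exchange factors (4 of 6), -0.0049 for other small heat shock proteins (3 of 6) and -0.11 for heat shock factors (1 of 4). Hsf1 itself had a change of 0.06 (SE 0.07, edgeR adjusted p = 0.714). Between the sexes 0 of the 88 genes passed by edgeR in hAPOE3 mice, in hAPOE4 mice or over both genotypes, with 3, 0 and 7 at an unadjusted p under 0.05, against 5.22%, 5.80% and 10.04% of all genes. The smallest unadjusted p over both genotypes belonged to Hsf4 (-0.37 in females, edgeR adjusted p = 0.313), Hspbp1 (-0.25, edgeR adjusted p = 0.321) and Pdia4 (0.23, edgeR adjusted p = 0.366). In hAPOE3 mice they were Hsf4 (-0.53), Hspbp1 (-0.32) and Chordc1 (0.25, edgeR adjusted p = 0.805), and in hAPOE4 mice Pdia4, Pdia3 (0.18, edgeR adjusted p = 0.937) and Ppp5c (-0.15, edgeR adjusted p = 0.971).

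**Figure D5:**
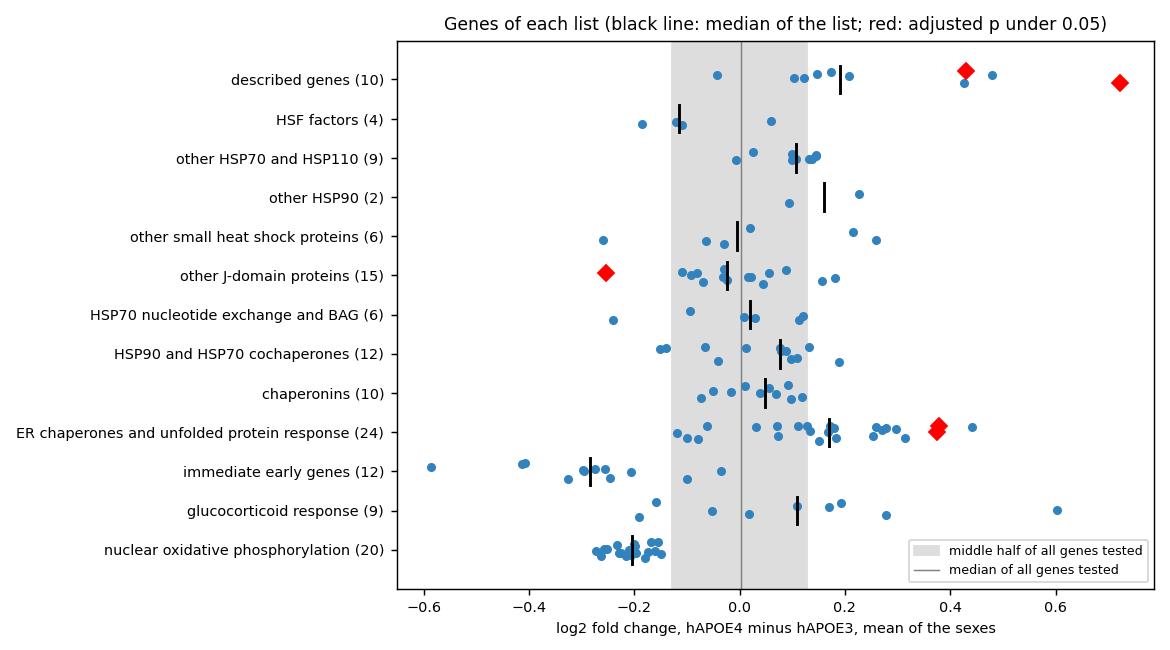
Log2 fold change from hAPOE3 to hAPOE4, mean of the sexes (x axis), of each gene (points) in the lists on the y axis, with the number of genes in brackets, the median of each list as a black line and the span between the quartiles of all genes tested as a grey band. The endoplasmic reticulum list has a median of 0.17 and 2 genes past an adjusted p of 0.05 (red), and all 20 oxidative phosphorylation genes lie below 0.

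Lists of cell state and cell type were read over both sexes beside the chaperones. Immediate early genes were below 0 for 12 of 12 genes (median -0.28) and nuclear oxidative phosphorylation genes for 20 of 20 (median -0.20), with 0 called by edgeR in either list and 1 and 6 at an unadjusted p under 0.05. Endothelial and mural markers were above 0 for 9 of 9 genes (median 0.29, 0 called, 2 at an unadjusted p under 0.05), with summed levels of 260.4 to 346 CPM with hAPOE3 and 262 to 413 CPM with hAPOE4 in males, and 262 to 331 CPM with hAPOE3 and 264 to 392 CPM with hAPOE4 in females. Choroid plexus markers were above 0 for 8 of 10 (median 0.57, 0 called), astrocyte markers for 6 of 7 (median 0.11) and glucocorticoid response genes for 6 of 9 (median 0.11). Blood markers were below 0 for 5 of 5 (median -1.56, 0 called by edgeR, 4 at an unadjusted p under 0.05). Changes were above 0 for 5 of 10 hippocampal neuron markers (1 called higher), 3 of 8 neuron, 2 of 7 oligodendrocyte, 3 of 7 microglia and 3 of 10 striatum and thalamus markers. At an unadjusted p under 0.05 by edgeR were 2 hippocampal neuron, 1 neuron, 0 oligodendrocyte, 3 microglia and 2 striatum and thalamus markers. The choroid plexus, astrocyte and glucocorticoid lists had 0 each. Of all genes tested edgeR called 2.45%, and 17.9% had an unadjusted p under 0.05. The part of these lists in the chaperone differences was not tested beyond the covariate fits above. With the choroid plexus score as a covariate Hspa1b and Hspa5 kept their calls, with 0.70 (edgeR adjusted p = 0.0457) and 0.40 (edgeR adjusted p = 0.0328).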

How the data were processed

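Hippocampal polyA RNA-seq of 20 mice was analysed, 5 per sex and APOE genotype. Per the submitters' processing notes the authors used Salmon 0.91 on mouse cDNA, with tximport giving gene totals. The deposited estimated counts are whole numbers, without normalization. The authors also deposited counts scaled by DESeq2, a signal used here in the limma alternative alone, as log2(value + 1). All sample columns were matched by name and 0 were left out.

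The main test was the quasi-likelihood test of edgeR 4.0.16 (R 4.3.3) after filterByExpr and TMM scaling, with all 20 mice in 1 fit and a coefficient for every group, and Benjamini-Hochberg adjustment over 21724 genes. Each SE is the log2 fold change divided by the square root of F. CPM used TMM library sizes, and log2 CPM used a prior count of 2. DESeq2 1.42.0 and limma 3.58.1 were alternatives, as were other normalizations, filters and covariates and each mouse left out. Fits without several mice and the share of Hspa1b were added after the data were seen. Correlations used 100000 permutations within groups, two-sided (Python 3.11.15, SciPy 1.17.1). Fits and correlations were tested on simulated data.

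The members and lists were chosen with earlier results of these data known. Genes named beyond the members were those called in a chaperone list, the 3 with the smallest p per comparison and the 3 most similar to each member. Manf, Pdia6, Calr, Hsp90b1, Hsf1, Hspa1l, the pseudogenes and the endoplasmic reticulum genes with changes below 0 were named in addition. Positions and 31-base words come from GENCODE (GRCm38), which matched 31064 of 33119 symbols. Replicates are separate mice. Depth was 35778879 to 52520279 counts per mouse.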

Additional observations from a re-analysis of the deposited data

Results flagged for a closer look

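Each member was checked in each group for a mouse far from the rest of its group, by the gap to the nearest mouse as a share of the group's range. Of 40 checks 2 stood out, the number that chance gives at 1 in 20. Hsp90aa1 was 1582 CPM in hAPOE3 male 3, against 1224 CPM in the next mouse of that group. Bag3 was 21.1 CPM in hAPOE4 male 3, against 11.7 CPM in the next mouse.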

How the results depend on the processing

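Over both sexes 2 members were called between the genotypes. The number was 1 with Hspa1a and Hspa1b summed and 1 with limma (Hspa5 each time), and 0 with the oxidative phosphorylation score or the immediate early gene score as a covariate. It was 0 to 2 when 1 mouse was left out, and differed from 2 in 15 of these 20 fits: it was 0 without hAPOE3 females 3, 4 or 5, hAPOE3 males 1, 2 or 4, hAPOE4 females 1, 2 or 3, or hAPOE4 males 1 or 3, and 1 without hAPOE3 male 5, hAPOE4 females 4 or 5, or hAPOE4 male 4. It was 0 without the 3 males with high striatum and thalamus markers, 0 without hAPOE4 males 2 to 5, and 2 without hAPOE3 male 3 and hAPOE4 male 3, fits chosen after seeing the data. DESeq2, other normalizations, no filter on low counts, no mitochondrial genes and the choroid plexus covariate each gave 2. Within males the number was 0 to 1 when 1 mouse was left out, with the call of Hspa5 appearing without hAPOE3 male 3. In the other 5 comparisons it stayed at 0 in every fit run. The sign of Hsp90aa1 over both sexes turned to 0.020 with limma and to 0.0043 without hAPOE3 male 3, in a range of -0.077 to 0.0043 when 1 mouse was left out. The number of correlated pairs was 11, and 2 to 13 when 1 mouse was left out. All genes called over both sexes numbered 532, with 283 to 792 when 1 mouse was left out, 1163 with DESeq2, 312 and 238 with the oxidative phosphorylation and immediate early covariates, 328 without the 3 males and 69 without hAPOE4 males 2 to 5. No analysis was paired, because the groups held separate mice. The cause of these changes was not tested. Each group held 5 mice, which limits precision.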

Other observations

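The share of Hspa1b in the counts of Hspa1a and Hspa1b was compared between genotypes after its values were seen. It was 57.6% ± 3.18 in hAPOE4 males against 50.3% ± 4.21 in hAPOE3 males (SD, n = 5; exact permutation test, two-sided p = 0.0159, adjusted p = 0.0238 over 3 tests). In females it was 56.5% ± 3.71 against 53.0% ± 3.96 (SD, n = 5; exact permutation test, two-sided p = 0.198, adjusted p = 0.198). Over both sexes it was 57.0% ± 3.30 against 51.7% ± 4.11 (SD, n = 10; permutation test, two-sided p = 0.00316, adjusted p = 0.00948). The range was 52.1% to 62.9% in hAPOE4 mice and 44.5% to 56.7% in hAPOE3 mice, so that the genotypes overlapped. The same counts had already given the call of Hspa1b and not of Hspa1a, and the adjusted p does not cover that choice. These p-values are therefore no separate support for a difference between the pair. The test over both sexes permuted mice without regard to sex and kept every hAPOE4 male. The division of shared reads between both genes was the counting program's estimate, and its part in the share was not tested.

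Of the pseudogene copies of chaperone genes, 3 chosen after their values were seen were highest in the 4 hAPOE4 males with more Xist than the other males. Other copies varied. Gm6210 had 15 to 25 counts in hAPOE4 males against 8 to 24 in hAPOE3 males, and Hsp25-ps1 had 0 counts in each hAPOE4 male. Gm7899 had a median of 7 against 6, yet a highest count of 58 against 13 (log2 fold change 1.73, SE 0.76, edgeR adjusted p = 0.504). For Gm5511, a copy of Hsp90aa1, the highest count was 58 against 15 (log2 fold change 1.73, SE 0.94, edgeR adjusted p = 0.581). Gm15459, a copy of Hspa8, had a median of 77 against 54 (log2 fold change 0.52, SE 0.29, edgeR adjusted p = 0.594). Gm12346, a copy that shared 49.0% of the 31-base words of Hsp90aa1, had 277, 236, 294 and 208 counts in hAPOE4 males 2 to 5, against 61 counts in hAPOE4 male 1 and 76 to 127 counts in hAPOE3 males. Gm5844, a further copy of Hsp90aa1, had at least 115 counts in each of the same 4 mice, against 25 counts in hAPOE4 male 1 and 15 to 55 counts in hAPOE3 males. Gm8337, a copy of Hspa8, had 82, 131, 99 and 101 counts, against 28 counts and 23 to 53 counts. In females Gm8337 was also higher with hAPOE4, with 27 to 39 counts against 3 to 23 (log2 fold change 1.31, SE 0.41, edgeR adjusted p = 0.197). Gm12346 and Gm5844 had female changes of -0.27 (SE 0.33, edgeR adjusted p = 0.858) and 0.16 (SE 0.40, edgeR adjusted p = 0.938). Between the male genotypes the log2 fold changes were 1.15 for Gm12346 (SE 0.32, edgeR adjusted p = 0.170), 1.62 for Gm5844 (SE 0.37, edgeR adjusted p = 0.0507) and 1.31 for Gm8337 (SE 0.37, edgeR adjusted p = 0.177). Of these 3, 0 passed by edgeR. They were chosen by their counts in these same males, so these tests cannot serve as support for a difference. Hsp90aa1 itself was 1543, 1219, 1421 and 1073 CPM in the 4 mice and 1228 CPM in hAPOE4 male 1.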
